A study of Mus musculus with 14 samples.

Results

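A run of 41 neighbouring genes on mouse chromosome 11, from Uqcr10 to Tbrg4, was followed through 14 brain transcriptomes. The 41 genes are 41 of the 23375 in the deposited table and 41 of the 1745 placed on chromosome 11. They were chosen by position, as neighbours whose ratio of mean FPKM in adult KO2 brain to adult wild-type set 1 was raised. The values of that comparison are therefore given below as a description, with no test. Gene order came from a RefSeq gene table, which matched 39 members by symbol and 2 by a synonym (H2afv, now H2az2, and 2210015D19Rik, now Ube2d-ps).

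The libraries were made from poly(A)-selected RNA of brain, and each group had 2. KO2 carried deletions of the H19-DMR and the IG-DMR, DMRs being differentially methylated regions that control imprinted genes. In KO3 the Rasgrf1-DMR was deleted as well. KO7 had a different set of deletions: the Peg3, Kcnq1, Snrpn, Igf2r, Gnas, Nespas and Grb10 DMRs. All knockout groups were produced with haploid embryonic stem cells carrying the deletions, whereas the controls are labelled wild type. The groups were adult KO2, adult KO3, adult wild-type set 1, adult wild-type set 2, and KO2, KO7 and wild type at the late embryonic stage E19.5. The sources used here give no strain, sex or adult age. From what is known of the study, KO2 and KO3 combine maternal genomes and KO7 combines paternal genomes, so that deletions, parental origin and the stem cell line used cannot be told apart. Whether the libraries of a group stem from different animals is not labelled, and the p-values below measure only the spread between these samples, which could be technical.

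The genes of the run do not form a pathway. They lie side by side on the chromosome and include a neurofilament subunit, a subunit of the synaptic kinase CaMKII, mitochondrial proteins, RNA-binding proteins and the stress transcription factor Xbp1. The run was proposed with a dosage ratio of 1.5 in view, the level that 3 copies of a gene would give in place of 2 if RNA followed copy number; DNA copy number was not measured in these libraries. The H19-DMR and the IG-DMR lie on chromosomes 7 and 12, away from the run. Many proteins of the run work in complexes whose other subunits are encoded elsewhere, so those partners give a comparison outside the run.

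Expression is in FPKM (fragments scaled by transcript length and by the mapped fragments of the library), which allows levels of different genes to be compared. Between 12701 and 13398 genes per library reached 1 FPKM, and read depth is unknown. The 4 libraries of adult KO3 and wild-type set 2 were deposited in another form, with 9994 genes at 0 in all 4, of which 6396 were above 0 elsewhere, so KO2 was set against set 1 and KO3 against set 2. KO3 library 2 stood apart: its median absolute log2 distance from the other adult libraries was 0.408, against 0.134 to 0.227 for the other 7. The neuron marker Snap25 lay at 785 to 1144 FPKM in the adult libraries and at 92.4 to 179 at E19.5, whereas Tubb3, high in young neurons, lay at 146 to 314 and at 1278 to 2282.

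Promoter sequence was examined for what the members share beyond position. RefSeq (GRCm38.p6) gave 47 promoter windows for 35 members. The 250 bases before each start are shown for 4 of them because they cover both outcomes: Zmat5, Ewsr1 and Camk2b were higher in adult KO2, whereas Ccm2 was not. Zmat5 lies at chr11:4704406-4704655, plus strand; Ewsr1 at chr11:5099097-5099346, minus strand; Camk2b at chr11:6065749-6065998, minus strand; and Ccm2 at chr11:6546637-6546886, plus strand. Each is written 5′ to 3′ on the strand of its gene, and capitals mark matches to the motifs searched.

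Zmat5: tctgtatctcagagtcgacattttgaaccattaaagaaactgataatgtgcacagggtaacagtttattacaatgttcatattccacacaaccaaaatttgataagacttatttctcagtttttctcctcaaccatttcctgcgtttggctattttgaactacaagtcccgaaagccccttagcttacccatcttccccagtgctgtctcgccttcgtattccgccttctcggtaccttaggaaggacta
Ewsr1: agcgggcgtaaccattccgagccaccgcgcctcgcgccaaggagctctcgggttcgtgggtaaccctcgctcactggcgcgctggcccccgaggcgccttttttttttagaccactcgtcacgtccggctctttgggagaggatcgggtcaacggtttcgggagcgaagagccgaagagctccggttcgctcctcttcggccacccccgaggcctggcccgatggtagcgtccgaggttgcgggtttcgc
Camk2b: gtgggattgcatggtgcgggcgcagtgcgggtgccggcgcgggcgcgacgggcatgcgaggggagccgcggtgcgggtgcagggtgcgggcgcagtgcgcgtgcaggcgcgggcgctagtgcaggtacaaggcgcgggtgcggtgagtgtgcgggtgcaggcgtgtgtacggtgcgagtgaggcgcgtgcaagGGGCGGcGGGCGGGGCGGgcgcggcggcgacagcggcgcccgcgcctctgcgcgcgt
Ccm2: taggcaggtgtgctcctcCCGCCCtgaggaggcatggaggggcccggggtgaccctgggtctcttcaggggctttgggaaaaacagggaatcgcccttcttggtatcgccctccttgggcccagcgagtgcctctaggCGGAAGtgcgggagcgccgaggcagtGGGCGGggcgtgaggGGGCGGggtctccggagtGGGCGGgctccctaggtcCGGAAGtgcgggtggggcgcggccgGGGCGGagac

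The motifs were searched on both strands: the CCAAT box (CCAAT), the GC box bound by Sp factors (GGGCGG), the TATA box (TATAAA), the NRF1 motif (GCGC, any base, then TGCGC) and the core of ETS sites (CGGAAG). Camk2b held 3 GC boxes. Ccm2 held 5 GC boxes and 2 ETS cores, and the windows of Zmat5 and Ewsr1 held no match. Over the 47 member windows, a GC box was present in 44.7% (32.7% of all 32851 windows), an ETS core in 29.8% (13.6%) and a CCAAT box in 38.3% (33.8%). A TATA box was present in 8.51% (12.4%) and an NRF1 motif in 8.51% (3.74%). Median GC content was 58.4% in member windows and 52.4% in all windows. No motif marked all members, and raised and unraised genes both included windows with GC boxes. The starts of Uqcr10 and Zmat5 are 312 bases apart on opposite strands, and those of Ewsr1 and Rhbdd3 are 177 bases apart. By these starts the genes of each pair run away from each other and do not overlap. Whether strand was used in counting is not given in the sources, so reads may be mixed if other starts, not examined here, overlap.

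In adult KO2 brain the run stood at about 1.5 times wild-type set 1. The median ratio of mean FPKM was 1.51 over the 35 members that averaged at least 5 FPKM in the 4 libraries, against 1.04 over all 9399 genes at that level and 1.03 over the 755 other chromosome 11 genes. Each KO2 library alone gave a median of 1.45 and 1.51 against the mean of set 1. All 35 ratios were above 1. Of the 35, 26 lay between 1.25 and 1.75, the midpoints between 1.5 and ratios of 1 and 2 (6.96% of all genes), 5 above 1.75 and 4 below 1.25, and a ratio of at least 1.25 was reached by 7.75% of all genes. Both KO2 libraries exceeded both set 1 libraries for 33 members, which 33.9% of all genes also did. The SD of the log2 ratios was 0.237 among these members and 0.303 over all genes. The members were chosen for a raised ratio in this comparison, so their narrower spread may follow in part from that choice. The members nearest the level limit of 5 FPKM were Kremen1, inside at a mean of 5.54 FPKM, and Znrf3, outside at 3.22 FPKM.

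**Figure D1:**
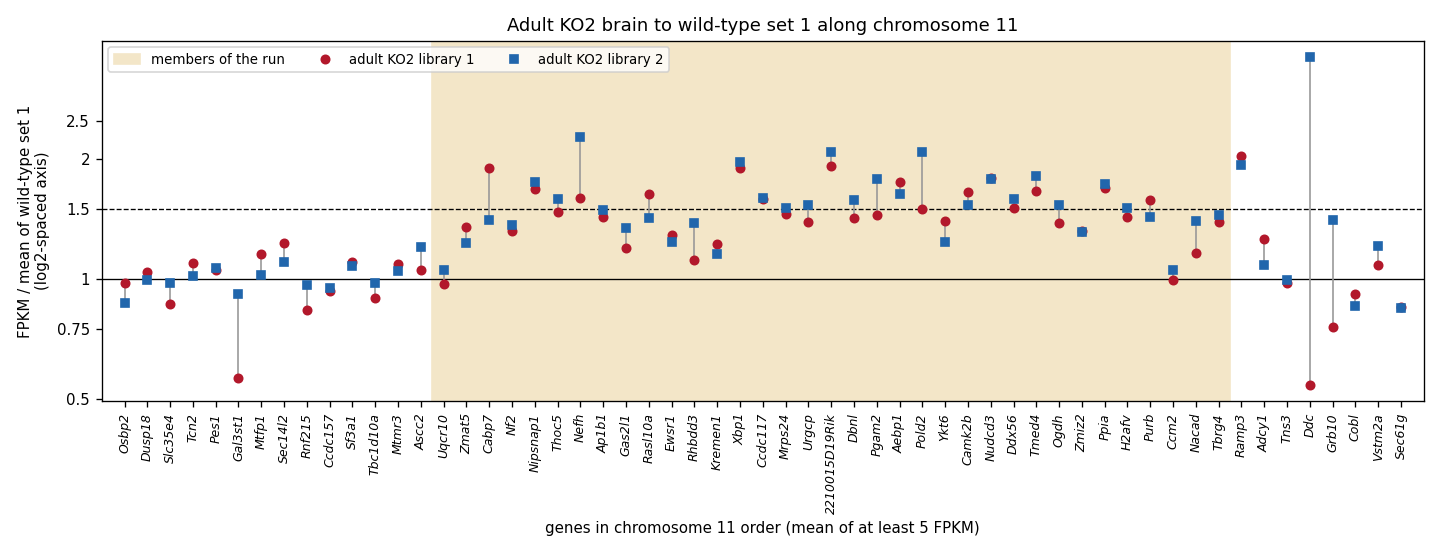
FPKM of each adult KO2 library (point colour and shape) divided by the mean of wild-type set 1, on a log2-spaced axis, for genes with a mean of at least 5 FPKM in chromosome 11 order; grey lines join the libraries and the shaded band marks the run. Mean ratios of members ran from 1.01 to 2.01 to either side of the dashed line at 1.5, with Uqcr10 and Ccm2 near 1. Most genes outside the band lie near 1, but Ramp3 and Ddc, after the run, reached mean ratios of 1.99 and 2.08.

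Among neuronal members, Nefh, the heavy subunit of the neurofilaments of large axons, had the highest ratio of the group. Nefh had 13.9 and 20.3 FPKM in adult wild-type set 1 and 27.4 and 38.8 in adult KO2, a ratio of 1.94. The KO2 libraries were both above set 1 but differed from each other, with ratios of 1.60 and 2.27. Nefh was as high or higher in the other adult groups, with 48.9 and 33.6 FPKM in wild-type set 2 and 67.9 and 81.3 in KO3, so the adult wild-type sets themselves did not overlap. At E19.5 all 6 libraries were between 1.44 and 4.10 FPKM.

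Camk2b encodes the beta subunit of CaMKII, the calcium-dependent kinase of synaptic plasticity. Camk2b had 226 and 209 FPKM in adult wild-type set 1 and 359 and 334 in adult KO2, a ratio of 1.60. Every other adult library lay between 167 and 226 FPKM, so the KO2 libraries stood above all 6 of them. Cabp7, a calcium-binding protein, had 23.0 and 24.2 FPKM in set 1 and 44.9 and 33.3 in KO2, but 48.4 and 33.1 in set 2. Its ratio of 1.66 against set 1 therefore became 0.959 against set 2. Rasl10a, a small Ras-like GTPase, had 39.1 and 23.8 FPKM in set 1 and 51.4 and 44.8 in KO2, a ratio of 1.53. Purb, a nucleic acid-binding protein of neuronal RNA transport granules, had 26.4 and 21.2 FPKM in set 1 against 37.8 and 34.1 in KO2, a ratio of 1.51. In bulk tissue, fewer cells of a type and less RNA per cell cannot be told apart.

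Summed markers of the cell types were compared beside these values. The sums of neuron markers overlapped, at 1529 and 1333 FPKM in set 1 and 1535 and 1408 in KO2, and of the 4 genes Tubb3 alone was lower in both KO2 libraries. The endothelial sum was lower in KO2 (21.7 and 30.04 FPKM) than in set 1 (45.9 and 43.8) through 1 of 3 markers, Cldn5 (12.2 and 16.9 against 33.5 and 30.8 FPKM), while Pecam1 and Flt1 overlapped. The microglial sum was lower (66.6 and 70.1 against 88.3 and 72.5 FPKM), with 3 of 4 markers below set 1 in both libraries. All 3 red cell markers were higher in KO2 (sums of 542 and 529.9 against 24.4 and 356 FPKM). Muscle markers were low in both groups (9.21 and 8.45 against 11.7 and 10.3 FPKM), and of their defining genes Actc1 was listed at 0 in 1 library of each. Of the 5 muscle markers, Acta1 and Myh6 were below set 1 in both KO2 libraries, and 3 overlapped. The sums of oligodendrocyte (1871 and 2839 against 2255 and 2958), astrocyte (326 and 369.8 against 348 and 391) and choroid plexus markers (1154 and 118 against 336 and 163 FPKM) overlapped. Of the 5 astrocyte markers, however, Slc1a3 and S100b were below set 1 in both KO2 libraries, and 3 overlapped. The part of these cell types in the ratios of the run was not tested.

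Members of the secretory pathway had ratios from 1.32 to 1.94. Xbp1, the transcription factor of the unfolded protein response, which raises chaperone and secretory genes once its RNA is spliced by Ern1, had 29.5 and 28.2 FPKM in set 1 and 54.9 and 56.8 in KO2. Its ratio of 1.94 was nearly equal in the KO2 libraries (1.90 and 1.97). Wild-type set 2 lay between, at 47.4 and 40.6 FPKM, and the ratio against it was 1.27. Tmed4, a p24 cargo receptor of vesicles between endoplasmic reticulum and Golgi, had 41.3 and 40.4 FPKM in set 1 and 67.9 and 74.1 in KO2, a ratio of 1.74. Its other 4 adult libraries were between 36.2 and 42.3 FPKM, below both KO2 libraries. Ap1b1, the beta subunit of the AP-1 clathrin adaptor, had 48.7 and 48.4 FPKM in set 1 and 69.7 and 72.6 in KO2, a ratio of 1.46. Ykt6, a SNARE of Golgi and endosome fusion, had a smaller ratio: it went from 29.3 and 27.8 to 39.9 and 35.3 FPKM, a ratio of 1.32.

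Mitochondrial members split. Uqcr10, a small subunit of respiratory complex III at the start of the run, was the lowest of the 35 ratios at 1.01, with 611 and 488 FPKM in set 1 and 534 and 579 in KO2. The groups overlapped for this gene. It also differed most between the wild-type sets, with 172 and 189 FPKM in set 2, so that the ratio against set 2 was 3.08. Nipsnap1, a mitochondrial matrix protein, had 26.6 and 24.1 FPKM in set 1 against 42.7 and 44.5 in KO2, a ratio of 1.72. Ogdh, the catalytic first subunit of the oxoglutarate dehydrogenase complex of the citric acid cycle, had 53.8 and 51.9 FPKM in set 1 against 73.2 and 81.1 in KO2, a ratio of 1.46. Mrps24, of the small mitochondrial ribosomal subunit, and Tbrg4, a regulator of mitochondrial RNA that ends the run, had ratios of 1.48 and 1.42. Apart from Uqcr10, both KO2 libraries lay above both set 1 libraries for each of these genes.

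Further nuclear proteins, beside Xbp1 above, had ratios from 1.27 to 1.80. Ewsr1, an RNA-binding protein of the FET family, had 83.0 and 83.9 FPKM in set 1 and 108 and 104 in KO2, a ratio of 1.27, and the groups did not overlap. Thoc5, of the THO complex for messenger RNA export, went from 12.7 and 13.2 to 19.2 and 20.7 FPKM, a ratio of 1.54. Pold2, an accessory subunit of DNA polymerase delta, had 8.94 and 8.55 FPKM in set 1 against 13.2 and 18.3 in KO2, and its ratios of 1.504 and 2.09 differed between the KO2 libraries. Zmat5, of the minor spliceosome, the nucleolar helicase Ddx56 and the transcriptional coactivator Zmiz2 had ratios of 1.29, 1.55 and 1.31. H2afv, which encodes a form of histone H2A.Z, had a ratio of 1.47, and Urgcp, a large GTPase-like protein, 1.46. The repair polymerase Polm, below the level limit, had 2.27 and 2.64 FPKM in set 1 and 3.07 and 3.80 in KO2.

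Nudcd3, a co-chaperone of the dynein motor, gave an even pattern. Nudcd3 had 37.8 and 34.8 FPKM in adult wild-type set 1 and 65.2 and 64.8 in adult KO2, and the remaining 10 libraries of both stages had 36.1 to 41.7 FPKM. Both adult KO2 libraries thus stood alone in the series, at a ratio of 1.79 to set 1 and 1.74 to set 2. Other cytosolic and cytoskeletal members followed. Ppia, the abundant prolyl isomerase cyclophilin A, had 1208 and 1107 FPKM in set 1 and 1961 and 2009 in KO2, a ratio of 1.71. Dbnl, an actin-binding adaptor, had a ratio of 1.51, the glycolytic enzyme Pgam2 1.62 and Gas2l1, which links actin to microtubules, 1.27. The pseudogene 2210015D19Rik (4.35 and 3.83 against 7.89 and 8.56 FPKM) had the highest ratio at 2.01. Ppia, H2afv and this pseudogene have related copies elsewhere. Reads shared with such copies were not examined, so the values of these genes are uncertain.

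Several regulators of signalling and of cell contacts were among the smaller ratios. Nf2 encodes merlin, a tumour suppressor upstream of the Hippo pathway, and had 22.6 and 21.3 FPKM in set 1 and 29.0 and 30.0 in KO2, a ratio of 1.35. Kremen1, a receptor for Dickkopf inhibitors of Wnt signalling, had 5.65 and 4.47 FPKM in set 1 against 6.21 and 5.85 in KO2, a ratio of 1.19. Ccm2, a scaffold protein of the endothelial cerebral cavernous malformation complex, overlapped between the groups, with 39.5 and 37.2 FPKM in set 1 and 38.3 and 40.6 in KO2, a ratio of 1.03. Of the 3 endothelial markers, Cldn5 was lower in KO2 and the other two overlapped, and their part in the value of Ccm2 was not tested. Rhbdd3, a rhomboid-like membrane protein, had a ratio of 1.249, just under 1.25. Aebp1, an extracellular matrix protein, Ccdc117, a coiled-coil protein, and Nacad, related to the nascent polypeptide-associated complex, had ratios of 1.69, 1.60 and 1.28. Znrf3, a ubiquitin ligase that removes Wnt receptors, had 2.98 and 2.81 FPKM in set 1 and 3.25 and 3.84 in KO2. Emid1, an extracellular protein, was the 1 member over 1 FPKM with a mean below set 1, at 2.73 and 2.30 FPKM in set 1 against 2.37 and 2.44 in KO2. The heart myosin light chain Myl7, the sterol transporter Npc1l1 and the blood cell myosin Myo1g stayed below 1 FPKM in all adult libraries and were not tested.

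**Figure D2:**
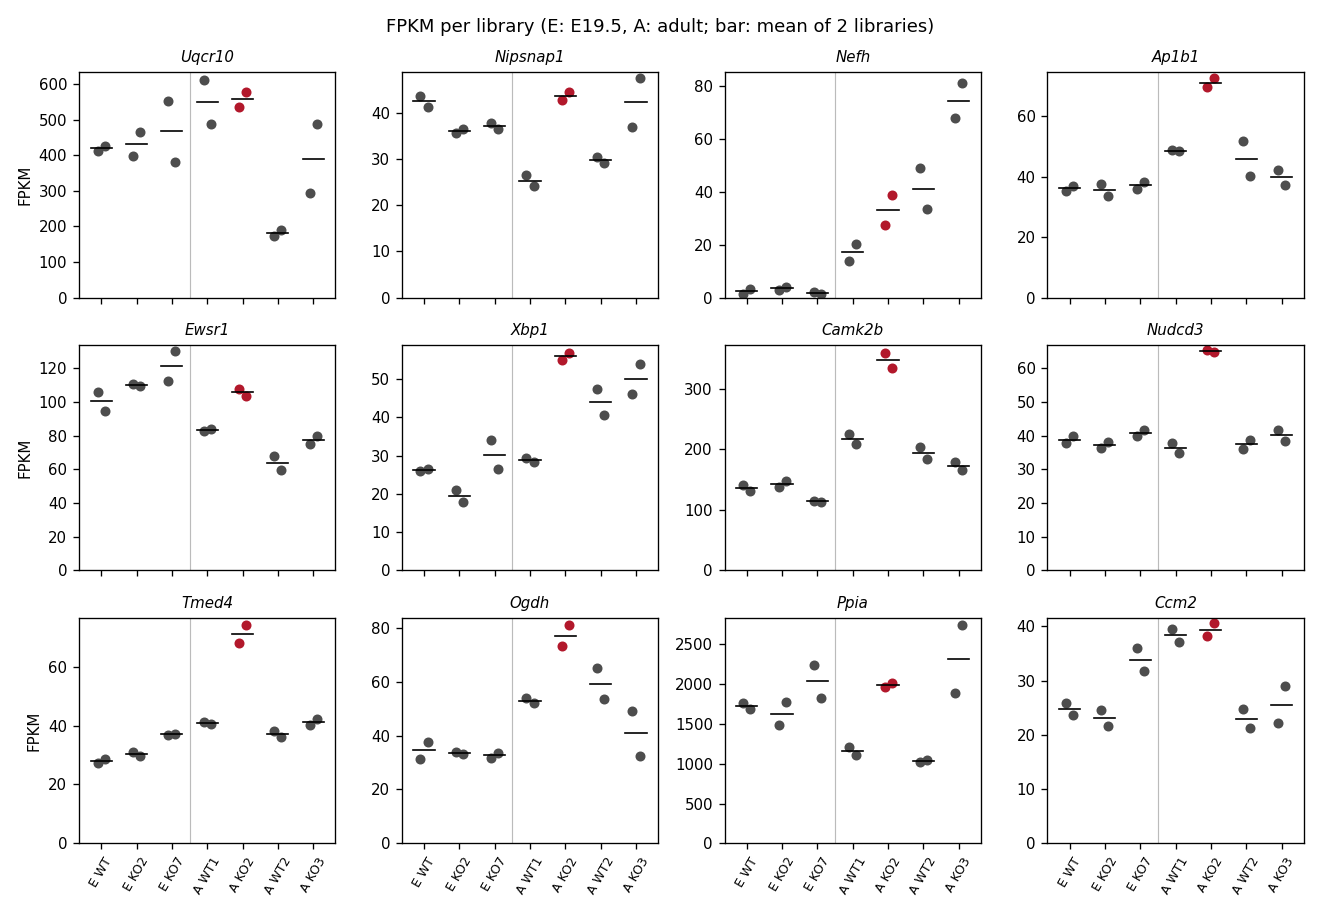
FPKM of 12 members in all 14 libraries (points, linear axis from 0), with a bar at the mean of the 2 libraries of each group; E marks E19.5, A adult, and red points adult KO2. For Nudcd3, Camk2b and Tmed4 the adult KO2 points lie above every other library, whereas Uqcr10 and Ccm2 overlap wild-type set 1 and Nefh is higher in KO3 (67.9 and 81.3 FPKM) than in KO2.

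The ratio left 1 close to the start of the run and varied from gene to gene at its end. The nearest genes before the run with at least 5 FPKM were Ascc2 (ratio 1.13), Mtmr3 (1.07), Tbc1d10a (0.94), Sf3a1 (1.09) and Ccdc157 (0.94), and the median of 14 such genes was 1.04. Uqcr10, listed as the first member, itself stayed at 1.01, so the level first left 1 at Zmat5 (1.29) and passed 1.5 at Cabp7 (1.66). The last members were Ccm2 (1.03), Nacad (1.28) and Tbrg4 (1.42). After Tbrg4, the next tested gene Ramp3, a receptor activity-modifying protein, was still high: 14.5 and 24.9 FPKM in set 1 against 40.2 and 38.3 in KO2, a ratio of 1.99. Ramp3 had 8.90 and 9.36 FPKM in set 2, so its level also differed between the wild-type sets. Adcy1 (1.18) and Tns3 (0.986) followed. Ddc reached 2.08, but its KO2 libraries differed widely (3.58 and 23.9 FPKM) and lay to either side of set 1 (3.59 and 9.60). The imprinted gene Grb10 had a ratio of 1.08, with 9.81 and 15.7 FPKM in set 1 and 9.69 and 18.0 in KO2. It was the 11th gene after the run among tested genes (at least 1 FPKM in at least 2 libraries). Of 8 genes after the run at this level the median was 1.12.

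Of the genes that lie within the run in the reference order but were not on the list, 4 are given here, and none averaged 5 FPKM. Gm11974 had 2.75 and 3.14 FPKM in set 1 and 4.55 and 4.26 in KO2, a ratio of 1.498. AA413626, Ankrd36 and Rps15a-ps6 were at or near 0. Along the genome, a running median of the ratio to set 1, the comparison that chose the run, took 9089 values over 11 neighbouring genes each. It peaked at 1.62 in the run, centred on Nudcd3. Elsewhere its highest value was 1.43, on chromosome 17, and 99 percent of values lay below 1.18.

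**Figure D3:**
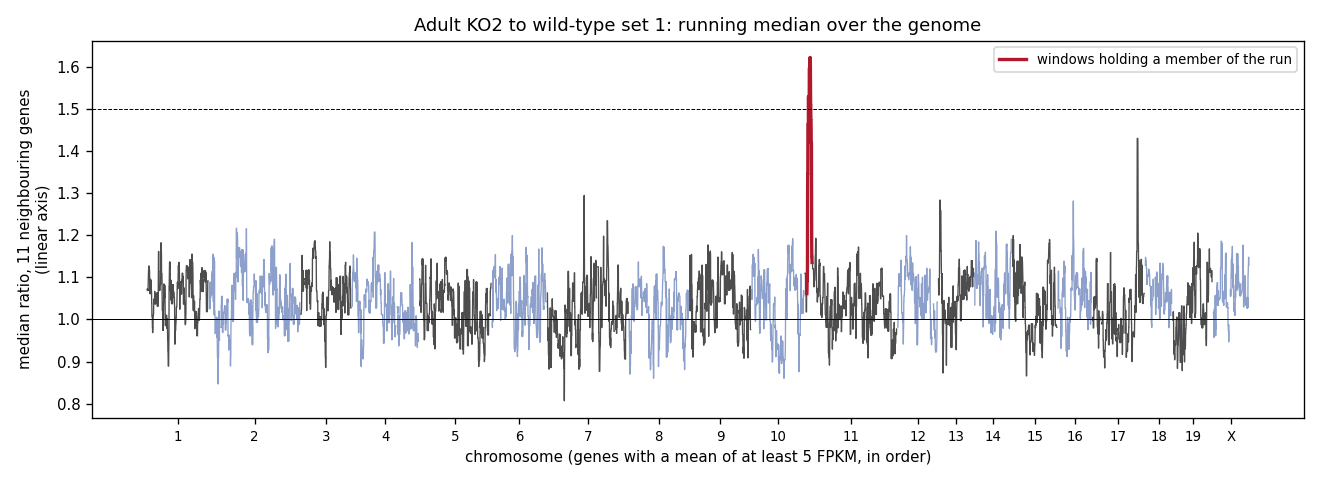
Median adult KO2 to wild-type set 1 ratio over 11 neighbouring genes (linear axis) for genes with a mean of at least 5 FPKM, ordered along each chromosome; the red line marks windows that hold a member of the run. The run peaks at 1.62 on chromosome 11, and the highest value elsewhere is 1.43 on chromosome 17.

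Set 2 as the reference gave a wider spread. Against it the members' median ratio in adult KO2 was 1.71 (1.06 over all genes), 33 of 35 members were above 1, and both KO2 libraries exceeded both set 2 libraries for 32 members (38.1% of all genes did). The exceptions below 1 were Nefh (0.802) and Cabp7 (0.959). This comparison shares the KO2 libraries with the one that chose the members. Against set 2, the running median reached 1.81 in the run, but its highest value elsewhere was 1.98, on chromosome 3. The flanking genes counted above had median ratios to set 2 of 1.24 before the run and 1.21 after it. Between the wild-type sets, set 2 to set 1, the 33 members at this level had a median of 0.896 (0.972 over all genes). Both set 2 libraries were above set 1 for 6 members and below for 17 (30.6% and 36.2% of all genes). Ccm2 had 24.7 and 21.2 FPKM in set 2, so it was not higher than set 1 in KO2 but was 1.72 times set 2.

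Partners of the members that are encoded outside the run were compared next, since they were not used in choosing it. The 17 lists hold 115 genes, of which 112 were tested in adult KO2 against set 1. With limma over all 14322 tested genes, 0 of the 112 passed an adjusted p of 0.05 (0.154% of all genes did), and 12 had an unadjusted p under 0.05 (7.34% of all genes). The median ratio of 98 partners with at least 5 FPKM was 1.05, and 10 reached 1.25. Nefl, the light neurofilament subunit that assembles with Nefh, had 251 and 249 FPKM in set 1 and 234 and 250.4 in KO2. Nefm, the medium subunit, had 61.3 and 57.2 FPKM in set 1 against 59.6 and 67.0 in KO2. Camk2a, the main partner of Camk2b in the CaMKII holoenzyme, had 813 and 472 FPKM in set 1 and 636 and 553 in KO2. The groups overlapped for these 3 partners, while Nefh and Camk2b themselves were higher in both KO2 libraries. The members were chosen through this ratio, so a contrast between members and partners follows in part from that choice. The complex III core subunit Uqcrc1, with 180.1 and 160.5 FPKM in set 1 against 158 and 171 in KO2, had a mean ratio below 1 (limma adjusted p of 0.434 or more for every partner). The 25 other small mitoribosomal genes had a median ratio of 1.03, beside 1.48 for Mrps24, which was chosen with the run.

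Genes of the unfolded protein response, the targets and sensors listed with Xbp1, had the highest median of the 17 lists, at 1.29 over 10 genes with at least 5 FPKM. Of these 10, 7 reached 1.25 (7.75% of all genes did): Hspa5, Dnajb9, Dnajc3, Pdia4, Sdf2l1, Creld2 and Herpud1. Hspa5, the chaperone BiP, had 80.5 and 92.3 FPKM in set 1 and 115 and 117 in KO2. Herpud1, which acts in degradation from the endoplasmic reticulum, had 24.4 and 24.8 FPKM in set 1 against 33.5 and 37.5 in KO2, and Creld2, a secreted stress-induced protein, 10.3 and 12.3 FPKM in set 1 against 14.5 and 15.4 in KO2. In all 3, both KO2 libraries were above both set 1 libraries. None of the 12 tested genes of the list passed (limma, lowest adjusted p = 0.434), and 5 had an unadjusted p under 0.05. Wild-type set 2 was as high as KO2 for Hspa5 (123 and 126 FPKM) and overlapped it for Herpud1 (35.5 and 29.1 FPKM). The list was drawn up with earlier results of these data known.

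In E19.5 brain with the same KO2 deletions the members lay close to wild type. The median ratio of KO2 to E19.5 wild type was 0.959 over 29 members with at least 5 FPKM (0.976 over all genes). Both KO2 libraries were above both wild-type libraries for 7 members and below for 9 (25.7% and 35.3% of all genes). Of 38 members tested, 0 passed in limma (1.28% of all genes did), and 8 had an unadjusted p under 0.05 (16.1% of all genes), 4 in each direction. For 29 of the 38, the 95% interval of the change lay wholly below the change that a ratio of 1.5 would give. The same share over all genes was not computed, so this count does not set the members apart from other genes. Nudcd3 had 37.8 and 39.7 FPKM in wild type against 36.4 and 38.0 in KO2, and Camk2b 140.2 and 130.3 FPKM in wild type against 138 and 148 in KO2 (limma log2 changes -0.06 and 0.08, adjusted p = 0.833 and 0.806), and neither passed. Xbp1 had 25.9 and 26.5 FPKM in wild type against 21.1 and 18.0 in KO2 and missed the threshold, although its groups did not overlap (limma log2 change -0.41 ± 0.14 SE, adjusted p = 0.183).

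Of the members nearest the threshold in E19.5 KO2, 2 had means above wild type and 1 below. H2afv had 24.3 and 24.9 FPKM in wild type against 34.0 and 36.6 in KO2 (limma log2 change 0.50 ± 0.11 SE, adjusted p = 0.0535), and it passed under 5 of the alternative settings. Pgam2 had 3.37 and 4.32 FPKM in wild type against 6.82 and 8.69 in KO2 (limma log2 change 0.85, adjusted p = 0.0854). Muscle markers, 4 of 5 above wild type in both libraries, moved with it: their summed level was 5.77 and 5.32 FPKM in wild type against 34.9 and 10.3 in KO2, and their part in the value of Pgam2, a muscle form of phosphoglycerate mutase, was not tested. Ykt6 had 75.2 and 74.9 FPKM in wild type against 54.8 and 56.0 in KO2 (limma log2 change -0.43, adjusted p = 0.117). Other cell-type markers also differed between the same libraries. All 5 oligodendrocyte markers were above wild type in both KO2 libraries (sums of 138 and 69.1 against 22.1 and 26.1 FPKM), as were 4 of 5 astrocyte markers (204 and 184 against 117 and 134 FPKM) and all 3 endothelial markers (64.4 and 60.9 against 50.8 and 53.6 FPKM). Of the neuron markers, Snap25 and Syt1 were above and Tubb3 below. The part of these markers in the member values was not tested. Whether the KO2 difference itself changed between the stages was not tested either.

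E19.5 KO7 carries another set of deletions, among them the Grb10-DMR on the same chromosome as the run. The members' median ratio to E19.5 wild type was 1.06 over 28 members (0.998 over all genes), with both KO7 libraries above for 12 and below for 8 (30.6% and 31.8% of all genes). In limma 3 of 38 members were higher and 0 lower (3.02% and 1.43% of all genes). Of the 95% intervals, 24 lay below the change for a ratio of 1.5, a count not computed over all genes. H2afv rose from 24.3 and 24.9 FPKM in wild type to 58.0 and 49.4 in KO7 (limma log2 change 1.09 ± 0.11 SE, adjusted p = 0.000589). Aebp1 rose from 4.11 and 5.97 to 12.3 and 10.01 FPKM (limma log2 change 1.02 ± 0.17 SE, adjusted p = 0.0109). Tmed4 rose from 27.1 and 28.7 to 36.8 and 37.2 FPKM (limma log2 change 0.40 ± 0.10 SE, adjusted p = 0.0452). The KO7 libraries did not overlap wild type for any of the 3. Without KO7 library 1, or without wild-type library 1, H2afv alone passed. All 3 endothelial markers were also higher in both KO7 libraries (sums of 97.8 and 80.5 against 50.8 and 53.6 FPKM), as were all 3 red cell markers (2639 and 2474 against 94.8 and 518 FPKM) and 4 of 5 muscle markers (13.0 and 11.4 against 5.77 and 5.32 FPKM). The neuron sum was higher (2468 and 2038 against 1619 and 1763 FPKM) through Tubb3, while Rbfox3, Snap25 and Syt1 were lower. The part of these markers in the values of H2afv, Aebp1 and Tmed4 was not tested. Both E19.5 comparisons share the wild-type libraries.

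Adult KO3 carries the KO2 deletions and the Rasgrf1-DMR deletion. The members' median ratio to set 2 was 1.14 over 33 members (1.02 over all genes), with both KO3 libraries above for 17 and below for 6 (36.8% and 25.3% of all genes). The spread was wide, with ratios from 0.475 to 2.24, and Nudcd3 and Camk2b stood at 1.07 and 0.888. In limma 6 members of 38 were higher and 3 lower (13.9% and 8.2% of all genes). Those higher were Ppia (1023 and 1042 FPKM in set 2 against 1889 and 2742 in KO3), Uqcr10 (172 and 189 against 293 and 487), Mrps24 (17.7 and 14.6 against 22.8 and 42.2), H2afv, Nipsnap1 and Ykt6, with log2 changes from 0.42 to 1.14 and limma adjusted p from 0.0162 to 0.0328. Those lower were Cabp7 (48.4 and 33.1 FPKM in set 2, 23.6 and 15.2 in KO3; limma log2 change -1.04, adjusted p = 0.0218), Ogdh (-0.55, adjusted p = 0.0447) and Nf2 (-0.43, adjusted p = 0.0476). Among mitochondrial partners of Uqcr10 and Mrps24, 5 of 8 other complex III genes and 21 of 25 other small mitoribosomal genes were called higher (13.9% of all genes were). Of the 3 partners of Ogdh, 1 was called higher. Over all 112 tested partners of the 17 lists, 44 were higher and 8 lower (13.9% and 8.2% of all genes), so calls were not limited to mitochondrial lists. These partner calls rest on the same libraries and were not recounted with single libraries left out.

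The KO3 calls of members depended on single libraries. Without KO3 library 2, which stood apart from the adult libraries, or without set 2 library 1, 0 members passed. Without set 2 library 2, Cabp7 alone passed, and without KO3 library 1 18 passed. Quantile scaling changed the balance to 5 higher and 6 lower, and median-of-ratios scaling to 7 and 5. All 3 red cell markers were also higher in both KO3 libraries, with sums of 965 and 1008 FPKM against 117 and 60.8 in set 2. Of the neuron markers Rbfox3 and Snap25 were higher and Syt1 lower, and of the 5 astrocyte markers 3 were higher and 1 lower. The part of these markers was not tested.

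**Figure D4:**
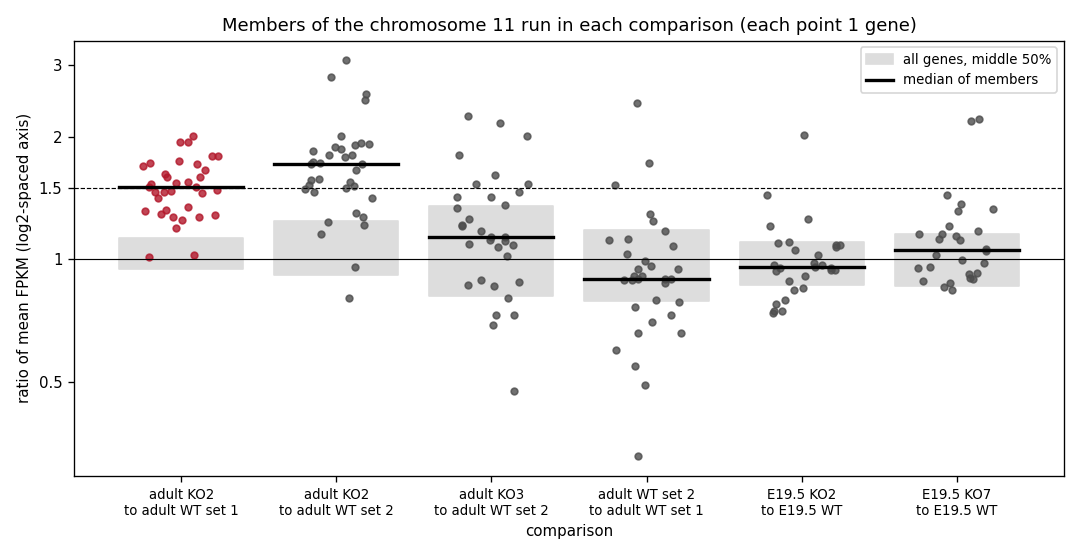
Ratio of mean FPKM on a log2-spaced axis for each member with a mean of at least 5 FPKM (points) in 6 comparisons, with a bar at the members' median and a grey box over the middle 50% of all genes. The members' median was 1.51 in adult KO2 to set 1, the comparison that chose them, and 0.959 and 1.06 in the E19.5 comparisons. The adult KO2, set 1 and set 2 libraries each enter more than 1 column.

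In wild type, the members did not change together between stages. Of 38 tested, 14 were higher and 16 lower in adult set 2 than at E19.5 (limma; 22% and 38.9% of all genes). The median change over all genes was -0.20 on the log2 scale; scaling shifted changes by 0.12 (quantile) or 0.19 (median of ratios). Set 2 and the E19.5 libraries were deposited in different forms, so stage and form cannot be told apart in this test. Set 1, deposited in the same form as E19.5, is given beside it as values only. Both set 1 libraries were above both E19.5 wild-type libraries for all 14 higher members, and below them for 12 of the 16 lower ones. This agreement was not computed over all genes, and both sets were compared with the same E19.5 libraries, so it is not an independent repeat. Set 1 was also the denominator of the ratio that chose the members, which favours low values in set 1. The counts for set 1 may follow in part from that choice. Cell-type markers differed widely between the stages: from E19.5 wild type to set 2 the oligodendrocyte sum went from 22.1 and 26.1 to 2148 and 1599 FPKM, the astrocyte sum from 117 and 134 to 363 and 336, and the microglial sum from 16.3 and 19.3 to 45.4 and 38.5. Snap25, Syt1 and Rbfox3 were higher in set 2 and Tubb3 lower, and the part of these markers in the member changes was not tested. The 4 largest rises were in Nefh, Cabp7, Rasl10a and Purb. Nefh rose from 1.49 and 3.12 to 48.9 and 33.6 FPKM (limma log2 change 3.70 ± 0.29 SE), Cabp7 from 2.19 and 3.68 to 48.4 and 33.1 FPKM (3.41 ± 0.26) and Rasl10a from 1.85 and 2.30 to 18.9 and 15.4 (2.56 ± 0.25), with adjusted p of 1.14e-06, 9.85e-07 and 6.25e-06. Purb rose from 5.65 and 4.75 to 29.6 and 29.5 FPKM (2.30 ± 0.13, limma adjusted p = 1.56e-07). The other 7 that rose, Zmat5, Gas2l1, Kremen1, Ap1b1, Urgcp, Tmed4 and 2210015D19Rik, had log2 changes from 0.33 to 0.79. Xbp1, Camk2b and Ogdh also rose by less than these 4, with log2 changes of 0.72, 0.52 and 0.76.

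Ykt6 had the largest fall, followed by Emid1 (-1.28 ± 0.12, limma adjusted p = 4.02e-06), Uqcr10 and Nf2. Ykt6 fell from 75.2 and 74.9 to 22.0 and 19.7 FPKM (limma log2 change -1.80 ± 0.12 SE, adjusted p = 4.09e-07). Nf2 fell from 45.8 and 42.5 to 21.1 and 17.9 FPKM (-1.14 ± 0.14, limma adjusted p = 3.51e-05), and Thoc5 from 26.8 and 24.1 to 12.4 and 10.8 (-1.07 ± 0.12, limma adjusted p = 1.93e-05). For Ykt6, Nf2 and Thoc5 both set 1 libraries were likewise below both E19.5 libraries, but set 1 entered the choice of the members. Uqcr10 fell in set 2 (-1.21 ± 0.25, limma adjusted p = 0.00138), whereas set 1, at 611 and 488 FPKM, was above the E19.5 level of 411 and 427, so the direction for this gene differed between the sets. Ppia fell by 0.74 on the log2 scale but turned to 0.84 under quantile scaling. Polm, Pold2, Rhbdd3, Nacad, Ewsr1, Zmiz2, Dbnl, Mrps24, Nipsnap1 and H2afv were also lower in set 2. Nudcd3 and Ccm2 missed the threshold, with log2 changes of -0.05 and -0.11 (limma adjusted p = 0.685 and 0.535).

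**Figure D5:**
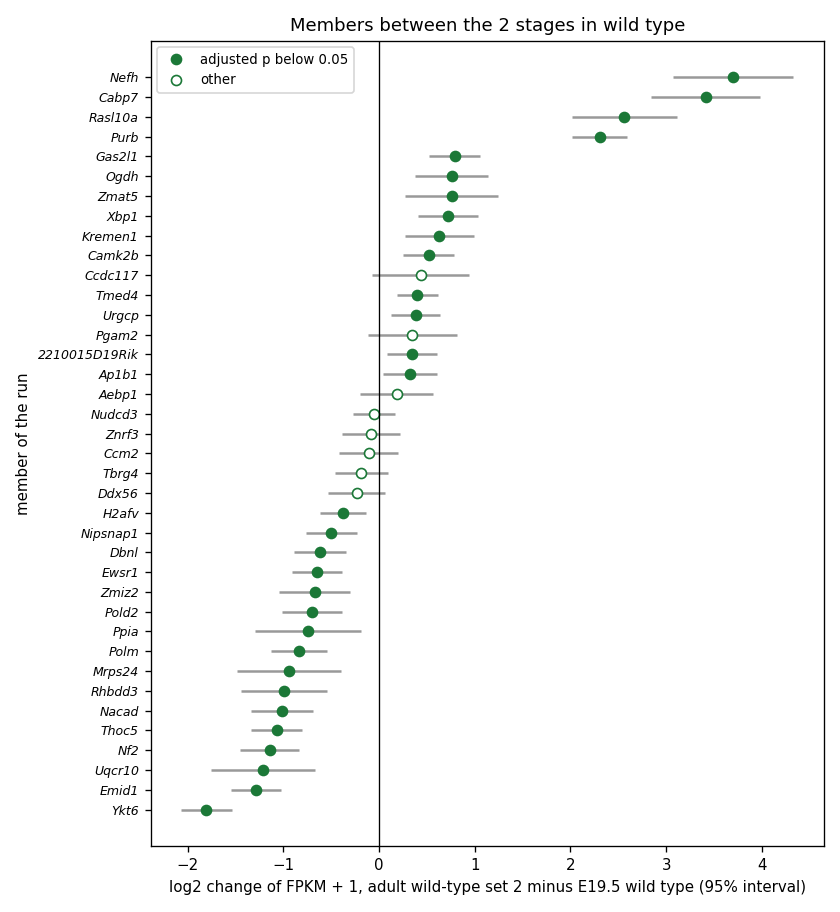
Limma log2 change of FPKM + 1, adult wild-type set 2 minus E19.5 wild type, with 95% intervals for the 38 tested members; filled points have an adjusted p below 0.05. Nefh (3.70), Cabp7 (3.41), Rasl10a (2.56) and Purb (2.30) lie far to the right and Ykt6 (-1.80) farthest to the left.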

How the data were processed

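Brain RNA was measured in 14 libraries of 7 groups, taken from the sample titles. The authors deposited 1 table of FPKM values for 23375 genes, and 2 rows that named no gene were left out. Cufflinks 2.2.1, TopHat2 2.1.1, CASAVA and, as the build, mm9 are named in the submitters' processing notes. The annotation, any low-value filter and strand handling are not stated there. Values of adult KO3 and wild-type set 2 carry no unit word in the table and were taken as FPKM. FPKM holds no read totals, so no counting interval was computed.

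Ratios are of group means, for genes with a mean of at least 5 FPKM in the libraries compared. The tests used log2(FPKM + 1) of 14322 genes (at least 1 FPKM in at least 2 libraries), with all 7 groups in limma 3.58.1 (R 4.3.3, trend, 2-sided, 7 residual degrees of freedom) and Benjamini-Hochberg adjustment over all tested genes at 0.05. Such changes understate those of low genes. The script was tested on simulated data. Of the 41 members 38 were tested. Gene order and promoters came from RefSeq GRCm38.p6. No mm9 coordinates were used.

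The members, the 17 partner lists and the tests were chosen with earlier results of these data known. Named genes are all members, genes inside the run that are not members (1 is not reported here), the 5 nearest genes with a mean of at least 5 FPKM on each side, Grb10, and partners that passed or are the best known. Partners named for a ratio of at least 1.25, and the chromosome 17 genes of the closing section, were picked after their values were seen. The alternatives were other pseudocounts (0.1 and 10), filters, scalings, groupings, a replicate block and leaving out each library.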

Additional observations from a re-analysis of the deposited data

Results flagged for a closer look

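For 8 of 34 members (23.5%), both KO2 libraries lay above both set 1 libraries in the adult and both lay below both wild-type libraries at E19.5, which 15.7% of all 9707 genes at a mean of at least 5 FPKM in these libraries also did. The difference between the stages was not tested. The adult direction was used in choosing the run and was met by 33 of 35 members, against 33.9% of all genes. The shares of members and of all genes are therefore not comparable. At E19.5 alone, both KO2 libraries were below wild type for 9 of 29 members (35.3% of all genes). As ratios of mean FPKM to wild type, Xbp1 had 1.94 in the adult and 0.745 at E19.5, Nipsnap1 1.72 and 0.849, and Thoc5 1.54 and 0.840. Mrps24 had 1.48 and 0.797, Urgcp 1.46 and 0.887, and Nf2 1.35 and 0.776. Ykt6 had 1.32 and 0.738, and Zmiz2 1.31 and 0.912.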

How the results depend on the processing

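The median member ratio of adult KO2 to set 1 was 1.44 under quantile scaling and 1.44 under median-of-ratios scaling, 1.71 with set 2 as the reference, and 1.45 to 1.53 leaving out each library. Leaving out each library gave 1.098 to 1.248 for adult KO3, 0.943 to 1.00 for E19.5 KO2 and 1.01 to 1.07 for E19.5 KO7. For E19.5 KO7 the median was 1.02 under quantile scaling and 1.03 as a median of library ratios. In E19.5 KO2, 1 member (H2afv) passed with a pseudocount of 0.1 or 10, with no filter and under quantile scaling, and 3 (H2afv, Pgam2 and Ykt6) with only the 2 groups compared in the fit. In adult KO3, 0 passed with only those 2 groups, and 0 to 18 leaving out each library. In E19.5 KO7, 1 to 2 passed leaving out each library. Of the partners in adult KO2, 0 to 1 passed (Lgr5, without KO2 library 2). The stage count kept within 23 to 30 over 13 alternatives. The causes of these differences were not tested. A library left alone in its group was assumed to vary like the other groups.

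Replicate numbers were not taken as pairing, since the labels name no shared source and each comparison has only 2 pairs. Same-numbered deviations correlated at -0.158 (E19.5 KO2), -0.0868 (E19.5 KO7), 0.127 (adult KO3), -0.241 (stage) and 0.233 (adult KO2). With the replicate number as a block, 0, 2, 9 and 30 members passed in the first 4 of these comparisons and 0 partners in adult KO2. With 2 libraries a group and unknown depth, small changes of low genes were not detectable.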

Other observations

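The highest running median outside the run in adult KO2 belonged to a stretch of 7 neighbouring genes on chromosome 17, chosen after the values were seen. Their ratios to set 1 were 1.59 for the myosin light chain gene Myl12b, 1.74 for Myl12a, 1.70 for Lpin2, 1.76 for Smchd1, 1.39 for Trmt61b, 1.94 for Wdr43 and 1.43 for Clip4. Smchd1, a chromatin protein of X inactivation and imprinted clusters, had 4.98 and 5.03 FPKM in set 1 and 9.15 and 8.51 in KO2, but 7.68 and 7.18 in set 2. Wdr43, of ribosome production, had 6.08 and 6.44 FPKM in set 1, 12.2 and 12.2 in KO2, and 7.66 and 8.77 in set 2. The neighbours Dlgap1 and Ypel5 had ratios of 1.16 and 1.09. At E19.5 the KO2 ratios of the same genes ran from 1.07 for Smchd1 and 1.07 for Myl12a to 1.60 for Lpin2 and 1.65 for Trmt61b. No test was made of this stretch.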
